A study of Mus musculus with 2 samples.

Results

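The fibroblast growth factor (FGF) ligands and receptors examined here were 10 mouse genes, chosen by name: the receptors Fgfr1, Fgfr2, Fgfr3 and Fgfr4, the ligands Fgf2, Fgf4, Fgf8 and Fgf9, and the feedback genes Spry4 and Dusp6. They were 10 of 21887 protein-coding genes on the chromosomes analysed. Open chromatin around them was measured by ATAC-seq, in which the Tn5 transposase cuts accessible DNA, in GSCs, a label abbreviation that this field uses for cultured germline stem cells. Both libraries, replicate 1 and replicate 2, came from Stag3 KO cells of the line Acrosin-EGFP; beta-Actin-EGFP (AAG), sorted as viable reporter-positive cells. Stag3 encodes a subunit of cohesin, the ring complex that folds chromosomes into loops, and both libraries were labelled as its knockout. Wild-type cells were not analysed here, so no value below is an effect of the knockout. Separate cultures or clones behind the libraries are not named in the labels, and their spread may be only technical.

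An FGF binds its receptor tyrosine kinase together with heparan sulfate, and the activated receptor recruits adaptors that switch on the RAS and ERK kinase cascade. ERK signalling induces its own inhibitors, among them the Sprouty proteins and the dual-specificity phosphatase DUSP6, which removes phosphate from ERK. In culture, mouse spermatogonial stem cells are commonly kept self-renewing with GDNF, to which FGF2 is often added. FGF9 is known from the fetal gonad, where it supports testis development, and FGF8 from the patterning of the embryo.

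A region counted as shared when the peaks of both libraries overlapped by at least 1 bp, and it was assigned to a gene when it lay in the gene body or within 50 kb of it. The 10 genes held 99 shared regions of 83732 in all. A shared region within 1000 bp of a gene start listed by RefSeq is called a start region below. At genes without a listed start, among them Fgfr1, Fgf8 and Spry4, the region was sought within 1000 bp of either gene end. Such a region is also called a start region, although that end may not be the start. Ends of other genes were sought among protein-coding genes only. Fold enrichment is the authors' peak-caller value, tags at the summit plus 1 over the local background plus 1, and the tags were recovered from it. At many regions the background was the same value, the lowest of the library, 2.19 tags in replicate 1 and 2.13 tags in replicate 2. Replicate 1 held 107331 peaks with a median of 40 tags at the summit, and replicate 2 held 98986 peaks with a median of 41. All 16 marker genes of undifferentiated spermatogonia and germ cells had a start region, as did 5 of 7 Sertoli, 1 of 5 Leydig, 3 of 7 fibroblast feeder and 0 of 5 blood and endothelial markers, against 66.1% of all protein-coding genes scored the same way. The Sertoli share was thus near that of all genes. With a listed start only, the counts were 9 of 9 germ cell, 2 of 3 Sertoli and 1 of 3 Leydig markers. They were 2 of 4 fibroblast feeder and 0 of 2 blood and endothelial markers, against 65.9% of all genes. The germ cell markers had median start folds of 11.7 and 10.3, against 15.2 and 16.0 over all genes with such a region. They ran from Nanos2, at 4.08-fold and 2.79-fold, to Id4, at 21.0-fold and 23.3-fold. The Leydig gene was Cyp11a1, at 24.6-fold and 27.1-fold, and the fibroblast genes were Col1a1, Col1a2 and Twist2. Their part in the values below was not tested.

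Start sequences were listed for 7 of the 10 genes, with 2 starts at Fgfr3. Each sequence runs from 250 bases before to 50 bases after the start and was taken from RefSeq on GRCm38.p6. The 5 shown were chosen because they span the range of accessibility seen at FGF starts: wholly inside peaks of both libraries (Dusp6, Fgfr4), reached by a peak of replicate 1 alone (Fgf4), or outside all peaks (Fgfr2, Fgf9). Capitals mark the matches to the motifs searched, on both strands. They were the GC box with the letters GGGCGG, the ETS motif searched as CCGGAAG, the cyclic AMP response element or CRE in its full form TGACGTCA, the promoter box CCAAT, the E-box in the form CACGTG, and the octamer that POU factors bind, ATTTGCAT. No motif overlapped a different motif in the 8 sequences searched, and the GC boxes of the second Fgfr3 start share 1 base. Sequences are written 5′ to 3′ on the strand of the gene.
Dusp6, chr10:99262981-99263280, plus strand: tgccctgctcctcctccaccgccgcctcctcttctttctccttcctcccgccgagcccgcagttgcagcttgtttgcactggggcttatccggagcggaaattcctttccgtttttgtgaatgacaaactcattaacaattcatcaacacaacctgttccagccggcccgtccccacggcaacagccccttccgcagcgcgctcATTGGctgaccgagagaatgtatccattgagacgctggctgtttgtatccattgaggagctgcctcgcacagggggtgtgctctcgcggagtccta
Fgfr4, chr13:55152568-55152867, plus strand: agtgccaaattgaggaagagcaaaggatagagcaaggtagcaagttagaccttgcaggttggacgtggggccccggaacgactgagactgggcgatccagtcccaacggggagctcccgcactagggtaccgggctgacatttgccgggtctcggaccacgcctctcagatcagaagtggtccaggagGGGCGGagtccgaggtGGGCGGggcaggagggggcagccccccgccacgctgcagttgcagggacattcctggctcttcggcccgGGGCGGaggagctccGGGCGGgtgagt
Fgf4, chr7:144861136-144861435, plus strand: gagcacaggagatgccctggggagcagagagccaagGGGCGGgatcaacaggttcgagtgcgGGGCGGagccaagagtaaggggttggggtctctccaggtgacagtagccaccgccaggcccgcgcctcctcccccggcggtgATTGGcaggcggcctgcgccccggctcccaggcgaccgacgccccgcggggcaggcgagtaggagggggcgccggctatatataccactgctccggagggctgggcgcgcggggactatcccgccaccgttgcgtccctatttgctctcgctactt
Fgfr2, chr7:130266759-130267058, minus strand: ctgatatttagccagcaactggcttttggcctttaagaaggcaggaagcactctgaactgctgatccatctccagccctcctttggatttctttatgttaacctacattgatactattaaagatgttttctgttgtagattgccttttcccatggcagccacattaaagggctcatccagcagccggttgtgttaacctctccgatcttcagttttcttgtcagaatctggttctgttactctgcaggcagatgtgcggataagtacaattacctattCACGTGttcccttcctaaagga
Fgf9, chr14:58072436-58072735, plus strand: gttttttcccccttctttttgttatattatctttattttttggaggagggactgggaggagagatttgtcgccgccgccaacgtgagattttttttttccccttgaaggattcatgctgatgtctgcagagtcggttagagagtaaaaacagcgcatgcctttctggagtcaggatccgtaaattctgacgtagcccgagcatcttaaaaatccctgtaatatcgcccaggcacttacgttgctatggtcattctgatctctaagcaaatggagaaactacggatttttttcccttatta

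The Fgfr4 sequence held 4 GC boxes and a GC content of 65.3%. The Dusp6 sequence, also covered by peaks along all 300 bases in both libraries, held no GC box, 1 CCAAT box on the opposite strand and a GC content of 57.3%. The Fgf4 sequence held 2 GC boxes and 1 CCAAT box at a GC content of 69.7%, and 197 of its bases lay in a replicate 1 peak and 0 in a replicate 2 peak. The Fgfr2 and Fgf9 sequences had the lowest GC contents of the 8, at 43.7% and 42.7%, and no base of either lay in a peak. Fgfr2 held the single E-box, and Fgf9 held no match. Of the sequences not printed, the first Fgfr3 start had 4 GC boxes and 1 CCAAT box at 69.7% GC, the second Fgfr3 start 2 GC boxes at 73.0% GC, and Fgf2 1 GC box at 62.7% GC. No ETS, CRE or octamer match stood in any of the 8. Among all 32851 promoters of this length, a GC box stood in 35.7%, an ETS match in 8.86%, a CRE in 1.79%, a CCAAT box in 37.4%, an E-box in 7.15% and an octamer in 1.74%. Wholly in peaks of both libraries were 3 of the 8 FGF promoters, at Dusp6, Fgfr4 and the second Fgfr3 start, against 23.5% of all promoters. The median GC content was 64.3% in all promoters wholly in peaks and 47.0% in those outside peaks. Of the promoters wholly in peaks, 74.8% held a GC box, 21.1% an ETS match and 3.93% a CRE. A CCAAT box stood in 43.2% of them, an E-box in 11.6% and an octamer in 1.54%. Like Fgfr2 and Fgf9, 52.7% of all promoters had no base in a peak of either library.

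All 10 FGF genes had a shared region at the gene start or end, against 66.1% of all protein-coding genes. In such bulk libraries, more cells with an open site and a site open more often in each cell cannot be told apart. Among genes with a listed start, the count was 7 of 7, against 65.9%. All 10 also had 1 or more shared regions in the gene or within 50 kb, against 89.6% of all genes. The start regions themselves were mostly modest: the median over the 10 genes was 11.1-fold in replicate 1 and 10.3-fold in replicate 2, against 15.2-fold and 16.0-fold over the 14473 genes that had one. The same held for tags, with medians of 78.5 and 86.0 at the FGF genes against 127 and 139 over all genes. Receptors stood above ligands, with median start folds of 15.0 and 16.0 at the 4 receptors and 8.42 and 7.65 at the 4 ligands. Fgfr1 and Fgf8 entered these medians with a region at a gene end that may not be the start. The groups overlapped, since Fgfr3 lay below Fgf4 and Fgf8.

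**Figure D1:**
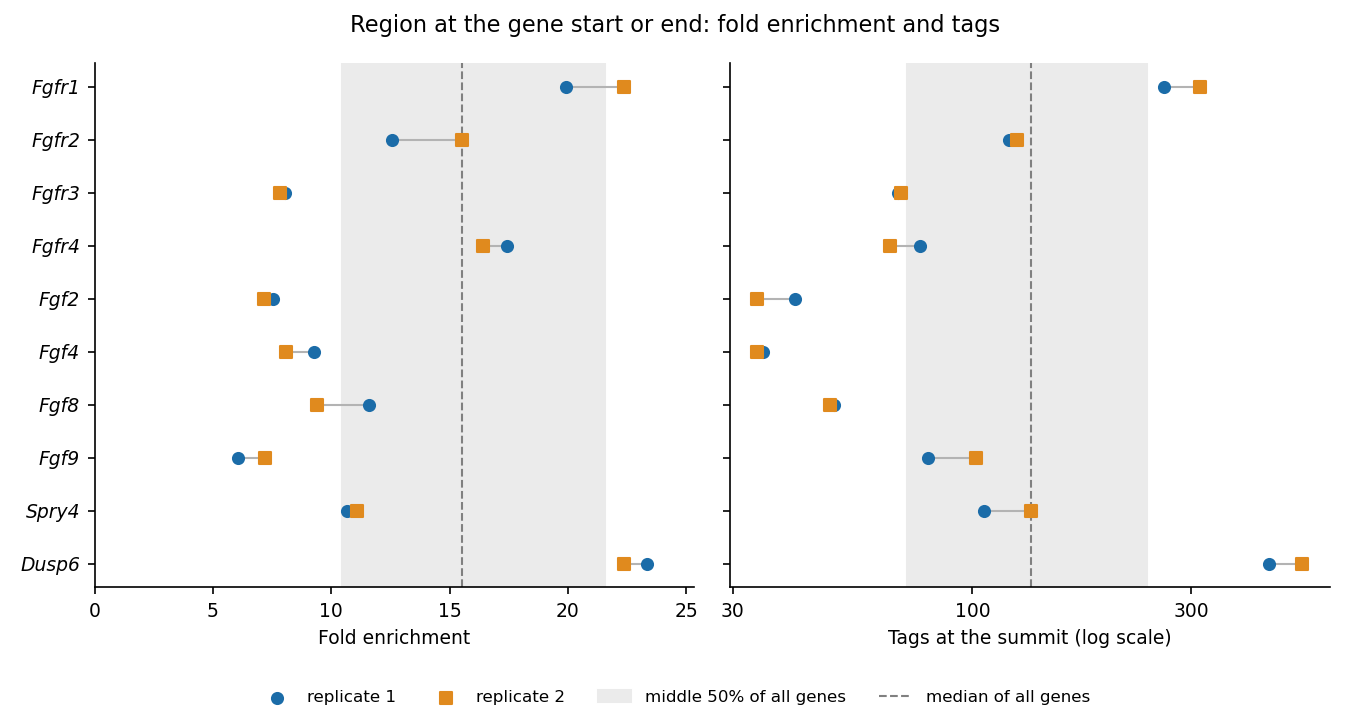
Fold enrichment (left) and tags at the summit (right, log scale) of the region at the start or end of each of the 10 FGF genes, with 1 point per library. Grey bands and dashed lines give the middle 50% and the median of the 14473 genes with such a region; Dusp6 and Fgfr1 lie to the right of both medians, while Fgf2, Fgf4, Fgf8 and Fgfr3 lie left of the band for tags.

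Of the receptors, Fgfr1 (chromosome 8, 25518759 to 25575718 of GRCm38.p6), a receptor of many FGFs including FGF2, had the strongest start. Its region at 25518547 to 25519141, at the lower-coordinate end of the gene, had 261 tags and 19.9-fold in replicate 1 and 313 tags and 22.4-fold in replicate 2. Both values lay above the medians of all genes, and the mean of 21.1 ± 1.74 (SD, n = 2) stood at percentile 73.3 of the start folds of all genes. Fgfr1 also had more accessible regions inside the gene and away from its ends than the other receptors, 4 in all. They lay 5.28, 18.5, 24.7 and 42.6 kb from the lower-coordinate end. In replicates 1 and 2 they had 12.6-fold and 14.5-fold, 22.8-fold and 19.9-fold, 11.6-fold and 15.4-fold, and 9.72-fold and 14.4-fold. A further region 30.8 kb below the gene, at 25487731 to 25488104, was one of the strongest of the locus, yet its libraries differed. It held 137 tags in replicate 1 and 82 in replicate 2, and 26.1-fold and 18.5-fold. On the opposite side, 4 of the 5 flank regions lay within 1000 bp of the ends of Letm2 or Nsd3, and the fifth lay in Nsd3, a histone methyltransferase gene.

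Fgfr2 (chromosome 7, 130162451 to 130266808), whose isoforms bind different FGFs by alternative splicing, had its start region beside the printed sequence and not over it. The region at 130265803 to 130266622 had its summit 0.469 kb inside the gene, with 120 tags and 12.6-fold in replicate 1 and 125 tags and 15.5-fold in replicate 2. A second, weaker region lay 0.475 kb before the start, at 4.81-fold and 5.02-fold. The start was flanked by further sites on its upstream side, at 6.69 kb with 17.3-fold and 15.2-fold and at 32.1 kb with 15.8-fold and 14.2-fold. The strongest site of the locus lay at the far side, 39.3 kb beyond the opposite gene end, at 17.6-fold and 21.2-fold on 57 and 77 tags. None of the 8 Fgfr2 regions lay at an end of another protein-coding gene.

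Fgfr3 (chromosome 5, 33721724 to 33737068), a receptor best known for restraining bone growth, had a wide and weak start region. It spanned 33721468 to 33722650 and took in both listed starts, with 69 tags and 8.03-fold in replicate 1 and 70 tags and 7.82-fold in replicate 2. The libraries were close to each other, and the mean stood at percentile 13.0 of the start folds of all genes. The strongest region of its window was at the start of Letm1, a gene of the mitochondrial inner membrane, 45.8 kb past the higher-coordinate end, with 405 and 400 tags and 30.8-fold and 32.4-fold. Without regions at ends of other genes, the highest Fgfr3 values were 10.2-fold and 10.2-fold, at a site 26.0 kb below the gene where 3 replicate 1 peaks shared 1 replicate 2 peak.

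Fgfr4 (chromosome 13, 55152818 to 55168759), the receptor of FGF19-type hormones in liver, was open over its start. The region at 55152419 to 55153092 had 77 tags and 17.4-fold in replicate 1 and 66 tags and 16.4-fold in replicate 2. Its tag count was close to that of Fgfr3, and its fold was higher on a local background of 3.48 and 3.08 tags, against 7.72 and 8.08 tags at Fgfr3. A stronger site lay 21.6 kb past the higher-coordinate end, at 55190054 to 55190852, with 127 and 177 tags and 20.0-fold and 22.0-fold. Fgfr4 held 14 regions, of which 4 were replicate 1 peaks set against 1 replicate 2 peak of 1217 bp at an end of Nsd1, another histone methyltransferase gene. The region farthest below the gene lay at the start of Zfp346, a zinc finger gene, at 12.6-fold in both libraries.

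Among the ligands, Fgf9 (chromosome 14, 58070671 to 58112854) held the strongest region of the 99. This site, at 58095758 to 58096170, lay inside the gene model 23.3 kb past the listed start. It held 216 tags and 35.5-fold in replicate 1 and 215 tags and 34.4-fold in replicate 2. The libraries were nearly equal, and the folds stood at percentiles 99.8 and 99.5 of all peaks of their libraries. No end of another protein-coding gene lay within 1000 bp. By contrast, the start region of Fgf9, at 58071769 to 58072339, had the lowest mean fold of the 10 genes, with 6.07 on 80 tags in replicate 1 and 7.19 on 102 tags in replicate 2. In replicate 2 alone, Fgf2 was lower, at 7.14-fold. Its summit lay before the listed start, on a local background of 12.3 and 13.3 tags, and the tags exceeded those at Fgf2, Fgf4 and Fgf8. Fgf9 also had the fewest regions, 4, all inside the gene model, and the other 2 lay 2.34 and 3.78 kb past the start at 4.34-fold to 6.95-fold.

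Fgf2 (chromosome 3, 37348477 to 37410106), the ligand most used in stem cell culture, had 2 replicate 1 peaks at its start that overlapped the same replicate 2 peak. The stronger pairing had 41 tags and 7.55-fold in replicate 1 and 34 tags and 7.14-fold in replicate 2. The next region before the gene, 7.14 kb below it at 37341171 to 37341495, was stronger, with 46 and 52 tags and 14.7-fold and 17.0-fold. The strongest region of the window belonged to the shared start of Cetn4, a centrin gene, and Bbs12, a ciliary chaperonin gene, at 31.9-fold and 33.4-fold on 375 and 405 tags. No shared region lay inside the Fgf2 body away from the start, and the 3 regions past its other end lay at the starts of Nudt6 and Spata5, the strongest at 11.6-fold and 12.7-fold.

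Fgf4 (chromosome 7, 144861386 to 144865245), a ligand of the early embryo, had its start region inside the gene, with the summit 0.568 kb past the start at 144861618 to 144862121. It held 35 tags and 9.28-fold in replicate 1 and 34 tags and 8.10-fold in replicate 2. These were the lowest start tags of the 10 genes, and their range overlapped that of Fgf2. The Fgf4 window also holds neighbouring ligand genes: Fgf3 had a start region at 8.64-fold and 7.80-fold, and 5 regions lay near an end of Fgf15, between 3.20-fold and 6.61-fold. The strongest region of the window, at 22.2-fold and 28.7-fold, was at the start of LTO1, and without regions at ends of other genes the highest values were 10.9-fold and 8.15-fold.

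Fgf8 (chromosome 19, 45736491 to 45742941) had a shared region at its lower-coordinate end, 45736874 to 45737438, with 50 tags and 11.6-fold in replicate 1 and 49 tags and 9.40-fold in replicate 2. Peaks near its higher-coordinate end were called in replicate 2 alone, at 4.17-fold and 3.24-fold. Which end is the start was not listed, so the shared region may lie at the far end of Fgf8. Stronger sites of the window lay at the start of Oga, which encodes the enzyme that removes O-GlcNAc from proteins, at 15.9-fold and 19.9-fold, and beside Npm3, a nucleoplasmin gene, at 12.2-fold and 13.1-fold. A region inside Oga, 28.7 kb from Fgf8, differed most between the libraries, with 39 tags in replicate 1 and 17 in replicate 2.

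**Figure D2:**
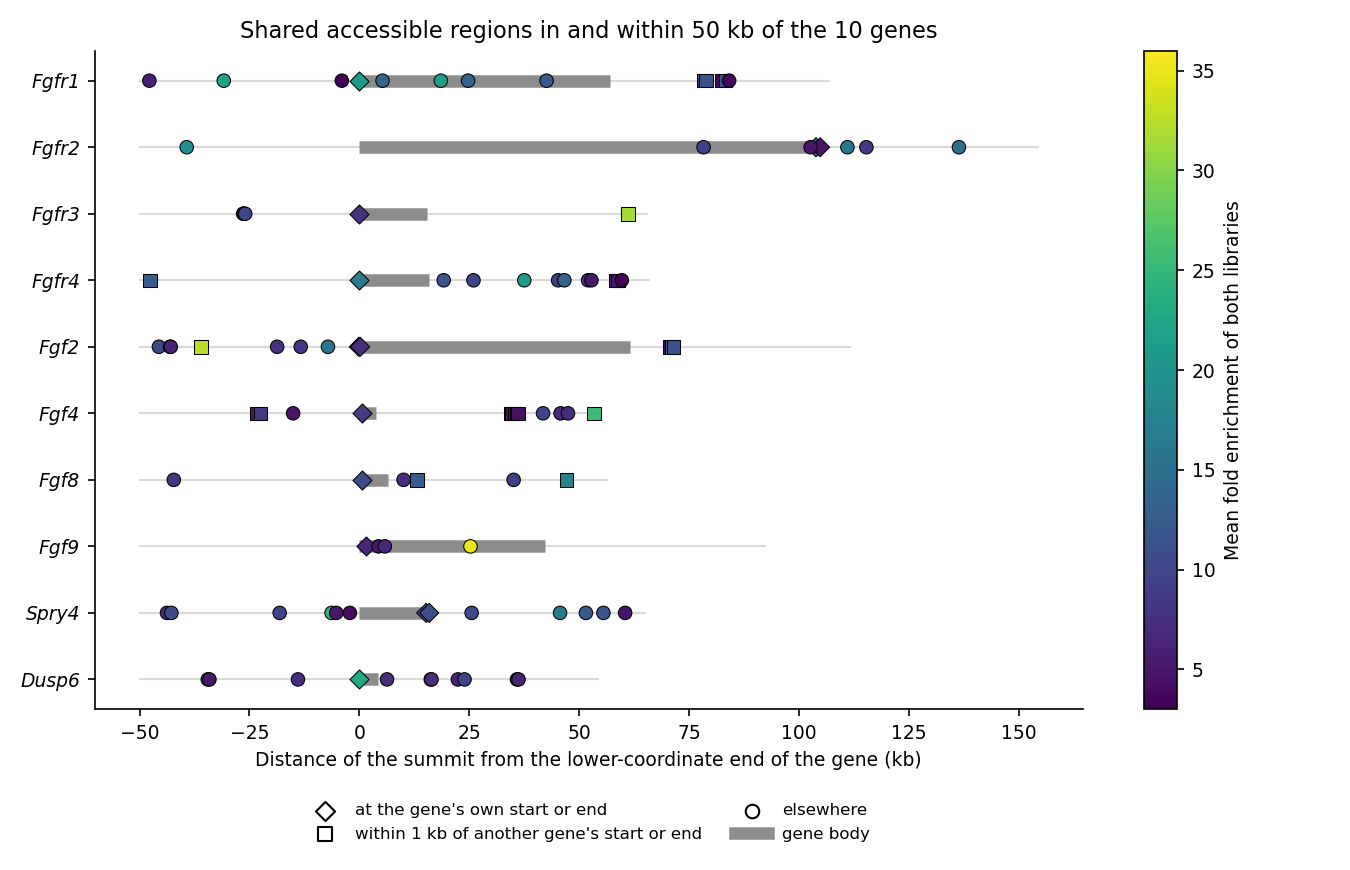
Position of the summit of each of the 99 shared regions relative to the lower-coordinate end of its gene (kb), coloured by the mean fold enrichment of both libraries; diamonds lie at the gene's own start or end, squares within 1 kb of another gene's start or end. The brightest circle is the region inside Fgf9, and the bright squares of Fgfr3, Fgf2 and Fgf4 lie at neighbouring genes.

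Of the feedback genes, Dusp6 (chromosome 10, 99263231 to 99267489) had the start with the most tags and the highest mean fold of the 10. The region at 99262922 to 99263436 held 442 tags and 23.3-fold in replicate 1 and 524 tags and 22.4-fold in replicate 2. In replicate 2 its fold was not above that of Fgfr1, also at 22.4-fold. The tags were above every other start of the 10 genes in both libraries, and their mean of 483 ± 58.0 (SD, n = 2) stood at percentile 96.2 of all genes with a start region. The fold stood at percentile 79.4, on a local background of 18.0 and 22.5 tags, the highest of the 10. The other 10 Dusp6 regions lay outside the gene and at no end of another protein-coding gene, and none exceeded 13.2-fold.

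Spry4 (chromosome 18, 38586247 to 38601347), an inhibitor of signalling upstream of ERK, had 2 regions at its higher-coordinate end, 0.097 and 0.803 kb outside the gene. The stronger held 106 tags and 10.7-fold in replicate 1 and 134 tags and 11.1-fold in replicate 2, and both also lay within 1000 bp of an end of Arhgap26. The strongest Spry4 region lay 6.32 kb below the lower-coordinate end, at 38579757 to 38580131, with 274 and 315 tags and 22.8-fold and 25.6-fold. It lay at no end of a protein-coding gene, and it exceeded the regions at the end of Spry4 in both libraries. A further 5 regions lay in Arhgap26, between 4.71-fold and 17.7-fold.

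Ordered by mean fold of the region at the start or end, the genes ran Dusp6, Fgfr1, Fgfr4, Fgfr2, Spry4, Fgf8, Fgf4, Fgfr3, Fgf2 and Fgf9. For Fgfr1, Fgf8 and Spry4 that end may not be the start. Dusp6 and Fgfr1, Spry4 and Fgf8, and Fgf2 and Fgf9 were not separated by the range of their libraries. By mean tags the order was Dusp6, Fgfr1, Fgfr2, Spry4, Fgf9, Fgfr4, Fgfr3, Fgf8, Fgf2 and Fgf4. There, Fgfr2 and Spry4, Fgfr4 and Fgfr3, and Fgf2 and Fgf4 overlapped. Fgf9 moved from the last place by fold to the fifth by tags. Each fold is relative to its own background, and lists called separately were not scaled to each other.

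The number of regions varied from 4 at Fgf9 to 14 at Fgfr4, with 13 at Fgfr1, Fgf4 and Spry4, 12 at Fgf2, 11 at Dusp6, 8 at Fgfr2, 6 at Fgf8 and 5 at Fgfr3. The median was 11.5 per gene, against 7 over all protein-coding genes, whose middle 50% ran from 4 to 11. It was 9 per gene with overlapping regions merged and 8.5 with an overlap of 50% of both peaks, both inside that range. The median of all genes was not computed with merging or with that overlap. Gene length enters these counts, and per 100 kb of gene and flanks the medians were 7.85 for the FGF genes and 5.35 for all genes. Before any merging, Fgf4 had 12.5, Fgfr4 12.1, Spry4 11.3, Dusp6 10.6 and Fgf9 2.81 regions per 100 kb. By number of regions, Fgfr4 stood first because replicate 1 peaks with the same partner were counted separately. Where overlapping regions were merged, the 99 regions formed 86 sites, with 13 at Spry4, 12 at Fgfr1 and 11 at Fgfr4 and Fgf4. With an overlap of 50% of both peaks, Fgfr1 and Spry4 had 13 regions and Fgfr4 had 9. Of the 99 regions, 14 (14.1%) lay in a gene body, against 24.3% of the regions counted over all protein-coding genes. Beyond the higher-coordinate end lay 52, and below the lower-coordinate end 33. A start or end of another protein-coding gene lay within 1000 bp of 26 regions, and 62 lay at no end of a protein-coding gene. The flank and gene-end counts were not computed over all genes.

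**Figure D3:**
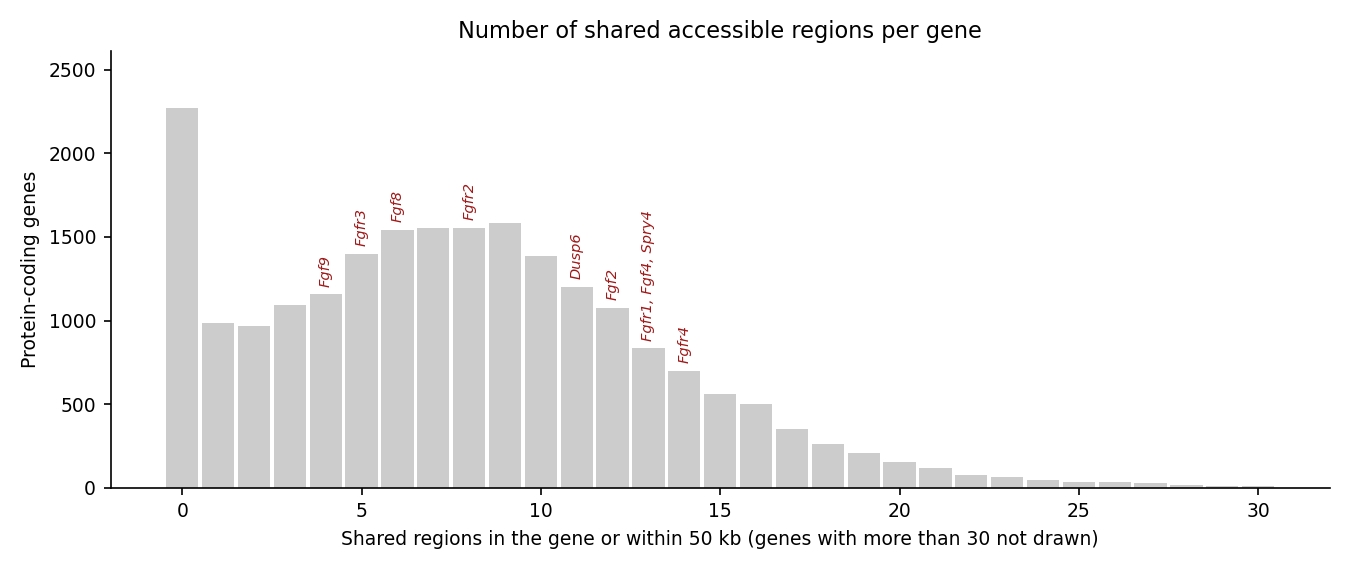
Number of protein-coding genes (vertical axis) with each number of shared regions in the gene or within 50 kb (horizontal axis), with the 10 FGF genes named above their bar. The FGF genes range from 4 to 14, and 6 of them hold 11 or more.

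Most FGF regions were weaker than the shared regions of the genome as a whole. Their median fold was 8.64 in replicate 1 and 7.89 in replicate 2, against 10.9 and 10.6 over all shared regions. Median tags were 46 and 49 against 52 and 51, and median local backgrounds were 4.58 and 5.28 tags against 3.64 and 3.60 tags. Of the 99, 3 (3.03%) stood above the 90th percentile of fold in both libraries, against 9.52% of all shared regions. These were the region inside Fgf9 and those at the starts of Letm1 and of Cetn4 and Bbs12.

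Tags of both libraries were compared over the 84 regions whose summits lay within 100 bp of each other. The ratio of replicate 2 to replicate 1 had a median of 1.06 and ran from 0.436 at the region inside Oga to 1.86 at a region 19.7 kb past Dusp6. Summed over the regions it was 1.10, against 1.04 over all shared regions. The exact 95% binomial interval of the ratio, which covers counting error only, left out the genome-wide ratio at 14 of the 84 (16.7%), against 26.3% of all shared regions. Of the start regions, this applied to that of Dusp6 alone, at 1.19 (1.04 to 1.35). Other examples were the region 30.8 kb below Fgfr1, at 0.599 (0.450 to 0.793), and the start of LTO1 in the Fgf4 window, at 1.64 (1.34 to 2.00). At the strong region inside Fgf9 the ratio was 0.995 (0.820 to 1.21).

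**Figure D4:**
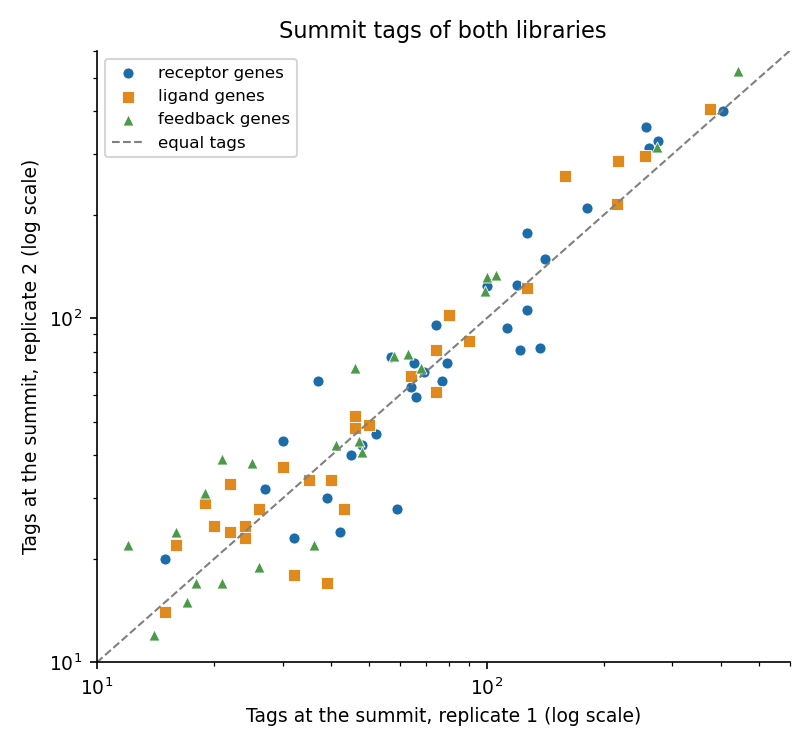
Tags at the summit in replicate 2 against replicate 1 (both log scales) for the 84 FGF regions with summits within 100 bp, by receptor, ligand and feedback genes. Points run along the dashed line of equal tags and spread more widely below about 50 tags.

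The rest of the FGF pathway was described with 5 lists of 86 genes. A region at the listed start, or at either gene end where no start was listed, stood at 79 of them (91.9%), against 66.1% of all genes scored the same way. Among the 63 pathway genes with a listed start, 57 had a region there (90.5%), against 65.9% of all genes with one. All 21 adaptor and kinase genes had one, led by the RAF kinase gene Araf at 27.7-fold and 31.2-fold and the ERK kinase gene Map2k1 at 24.9-fold and 27.2-fold. So did all 16 ERK target transcription factor genes, led by the ETS factors Elk1 at 27.1-fold and 27.6-fold and Etv1 at 24.4-fold and 25.0-fold. Co-receptors and modulators had 17 of 19, led by Flrt3, whose product binds FGF receptors, at 24.2-fold and 29.5-fold, and the heparan sulfate enzyme gene Hs2st1 at 25.0-fold and 26.7-fold, and none was seen at Fgfbp1 or Flrt2. Other feedback genes had 11 of 12, led by the phosphatase genes Dusp7 at 19.8-fold and 19.0-fold and Dusp5 at 16.5-fold and 21.5-fold, and none was seen at Spry3. Of the other Fgf genes, Fgf22 at 15.8-fold and 22.7-fold and Fgf12 at 19.2-fold and 17.4-fold were the highest. This list had the lowest share, 14 of 18, with none at Fgf6, Fgf7, Fgf21 or Fgf23. The median start folds of the list, 8.60 and 7.90, were near those of Fgf2, Fgf4, Fgf8 and Fgf9. Adaptors and kinases had medians of 15.7 and 16.6, feedback genes 13.6 and 15.5, and co-receptors and modulators 11.8 and 13.1. For ERK target transcription factor genes they were 10.1 and 12.3. Over all 5 lists the medians were 11.1 and 13.1, below the 15.2 and 16.0 of all genes with such a region.

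**Figure D5:**
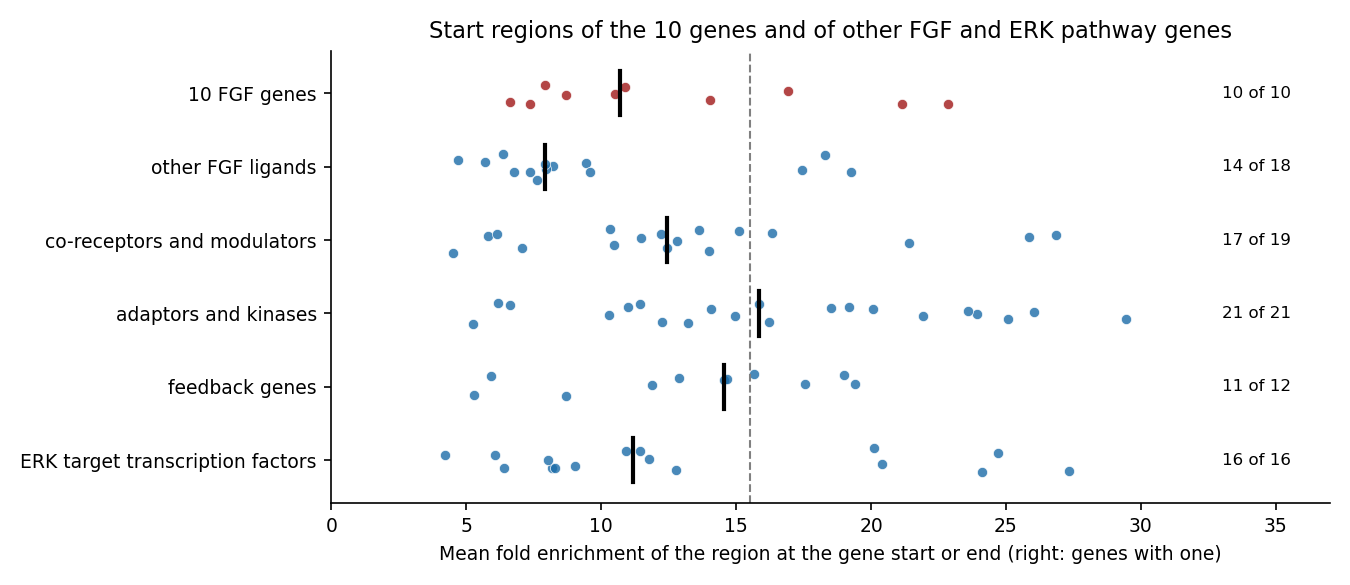
Mean fold enrichment of both libraries at the gene start or end for the 10 FGF genes and the 5 pathway lists; each point is a gene, black bars are medians, the dashed line is the median of all genes, and the numbers at the right count the genes with such a region. Most points of the list labelled other FGF ligands, which holds the other Fgf genes, lie left of 10-fold, with 3 exceptions above 15-fold.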

How the data were processed

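The 2 ATAC-seq libraries of 1 group were analysed, grouped and numbered by their titles. Per the submitters' processing notes, the tools were MACS2 (version 2.1.1, the peak caller), Bowtie2 (version 2.3.4.1), deepTools (version 3.5.0), Picard (version 2.18.23), bedtools (version 2.29.2) and Trim Galore. The builds named there are mm10 and GRCm38.p3. How these tools were set (Tn5 shift, duplicates, problem regions) is not given in the sources used, and such settings affect which sites are called and how sharp summits are. The authors deposited 1 peak list per sample, with a fold enrichment, a −log10 p-value, a −log10 q-value and a score, which is 10 times the −log10 q cut to a whole number and was not used further. The total read depth is unknown. Tags at summits were recovered from fold and p as the whole number that solves both (relative tolerance 1e-05 plus 0.0001), unique for 100% of peaks, and the step was tested on simulated data. Summits held 9 to 849 tags in replicate 1 and 9 to 907 in replicate 2.

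Each replicate 1 peak was joined to its most overlapping replicate 2 peak, and several could share a partner. Of the peaks, 78.0% of replicate 1 and 84.9% of replicate 2 were shared. Genes and starts came from RefSeq tables on GRCm38.p6, which hold gene bounds and starts, so exons and introns were not analysed here. With 1 group, no test between conditions was made. The members and lists were chosen with earlier results of these data known. Named genes were the 10, the 2 strongest starts and all genes without one in each pathway list, and genes starting within 1000 bp of a counted region; markers, overlapped genes and genes whose other end lay there were named in addition. Alternatives were other windows, distances, overlaps and thresholds, and each library alone. Python 3.11.15, numpy 2.4.6, pandas 2.3.3, scipy 1.17.1 and matplotlib 3.10.9 were used.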

Additional observations from a re-analysis of the deposited data

How the results depend on the processing

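The window set the counts. The 99 regions around the 10 genes became 20, 36, 52 and 150 with windows of 0, 10, 25 and 100 kb, and the median per gene of 11.5 became 1, 3.5 and 5 with 0, 10 and 25 kb. The median of the highest folds, 24.2, became 12.3, 16.7, 18.7 and 26.1 with those 4 windows, and 20.2 without regions at ends of other genes, an alternative added after the data were seen. With peaks at or above the median fold of their library, 40 regions were left, 3.5 per gene, and 6 genes kept a region at the start or end. Fgfr3, Fgf2, Fgf4 and Fgf9 had none. The share of all genes was not computed at this threshold, at an overlap of 50%, at other start distances or in 1 library alone. The counts of members and pathway genes under those alternatives therefore have no share of all genes beside them. With an overlap of 50% of both peaks, Fgf2 had no start region, and with gene ends in place of listed starts Fgf9 had none, which left 9 genes against 65.8% of all genes. Taking the peaks of 1 library alone gave 114 to 125 regions, 11 to 14 per gene, 10 genes with a start region in both cases and 79 pathway genes in both. The pathway count of 79 ran from 53 to 81 over its other alternatives. The counts rest on peak calls, and a site under the threshold of the caller in 1 library is not in them. No paired analysis was possible because there was 1 group.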

Other observations

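Around the 10 genes, 26 of 125 replicate 1 peaks and 22 of 114 replicate 2 peaks had no partner in the other library. These shares were 20.8% and 19.3%, against 22.0% and 15.1% of all peaks of replicates 1 and 2. The unpartnered peaks had median folds of 5.33 and 5.03 and medians of 20 and 20.5 tags. The highest reached 8.78-fold, near Spry4 in replicate 1, and 9.38-fold, near Fgfr1 in replicate 2. Fgfr1 had 4 in replicate 1, as did Fgf8 and Spry4, and 7 in replicate 2, while Fgf2 and Dusp6 had 0 in replicate 2. Beside the start of Fgf4, a replicate 1 peak at 144861042 to 144861332 of chromosome 7 held 16 tags at 4.47-fold and had no counterpart.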
